A study of Mus musculus with 44 samples.

Results

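The genes described here encode matricellular and adhesive glycoproteins of the extracellular matrix: Sparc, Postn, Thbs1, Thbs2, Tnc and Fn1. Their probe sets were chosen by gene symbol on all array types, whatever their values. Of 36701 probe sets, 8 named exactly 1 listed member, and they covered 5 of the 6 genes. The remaining gene, Thbs1, was represented by 1 probe set that the platform annotation gave to both Pald1 and Thbs1. That probe set was kept out of all member counts, and its values are reported under both names.

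RNA had been taken from mouse calvarial osteoblast cultures, grown from the skull bones of newborn mice labelled as 7 days old, and measured on 3 Affymetrix array types called A, B and C. Cultures were harvested on day 7 without additions (Exp99, Exp101 and Exp103), or on day 17 after ascorbic acid and beta-glycerophosphate from day 7 on (Exp100, Exp105 and Exp106). The series title pairs day 7 with the reporter pOBCol3.6GFP and day 17 with pOBCol2.3GFP, in both of which fragments of the type I collagen promoter drive green fluorescent protein (GFP). The strain and the sorting gate are not stated in the labels. Each experiment gave a GFP-positive and a GFP-negative fraction from fluorescence-activated sorting and an unsorted sample, so there were 18 RNA samples in 6 groups of 3. Day, reporter and additions changed together and cannot be told apart. Only the experiment names speak for separate cultures. The p-values therefore reflect how much these samples varied, which may be technical.

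Matricellular proteins are secreted into the matrix and regulate how cells attach, spread and respond to growth factors, more than they bear load. In bone, SPARC, also called osteonectin, binds collagen and mineral, and periostin marks the periosteum and early osteoblasts. Thrombospondins and tenascins modulate adhesion, and fibronectin provides the fibrils on which cells and other matrix proteins assemble.

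The results below turn on Thbs2 and Postn, the members with a called difference between the sorted fractions at day 17, so the bases just upstream of their gene starts are shown. Both come from RefSeq on GRCm38.p6, run 5′ to 3′ on the gene's own strand and end at the base before the start. RefSeq's promoter table held 4 of the 6 listed genes. For Postn it gave 2 starts, and the gene's outer start was used. Capitals mark matches on either strand to any of 6 motifs: the TATA box (TATAAA), the CCAAT box (the same letters), the GC box (GGGCGG), an AP-1 site (TGANTCA), a TEAD site (GGAATG) and a Runx site (TGTGGT).
Thbs2: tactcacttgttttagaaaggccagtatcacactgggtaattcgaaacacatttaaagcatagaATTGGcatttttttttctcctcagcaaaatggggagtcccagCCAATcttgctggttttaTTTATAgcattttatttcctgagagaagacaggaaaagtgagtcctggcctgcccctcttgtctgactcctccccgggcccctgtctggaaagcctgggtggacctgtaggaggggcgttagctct
Postn: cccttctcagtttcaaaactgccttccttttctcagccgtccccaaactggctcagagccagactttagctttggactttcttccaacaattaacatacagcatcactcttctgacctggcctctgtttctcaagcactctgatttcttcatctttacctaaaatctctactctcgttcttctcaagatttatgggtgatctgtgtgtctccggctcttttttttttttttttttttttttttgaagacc
The Thbs2 stretch lies at chr17:14694263-14694512 on the minus strand and the Postn stretch at chr3:54359017-54359266 on the plus strand. The Thbs2 stretch held 2 CCAAT matches, 1 of them on the opposite strand as ATTGG, and 1 TATAAA match, on the opposite strand as TTTATA. These matches do not overlap each other. Matches to CCAAT occurred in 33.8% and to TATAAA in 12.4% of 32851 promoters of the same length. The Postn stretch had no match to these 6 motifs, which says only that those letters are not in this window.

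Intensities below are normalised values, quantile normalised within an array type and given with the experiments in the order Exp99, Exp101 and Exp103 for day 7 and Exp100, Exp105 and Exp106 for day 17. Differences are on the scale of log2 of intensity plus 32, with the standard error from limma. A difference is called when its Benjamini-Hochberg adjusted p, taken over all probe sets tested, is under 0.05. Sorted samples were fitted together over 22099 probe sets of all array types, and comparisons with unsorted RNA over 7455 probe sets of array A. Of the 8 member probe sets, 7 passed the filter on low intensity in the sorted fit and 6 were tested on array A.

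Exp106 stood apart from the other experiments. Its sorted samples had a mean correlation with the others of 0.839 over array A probe sets, against 0.943 among the others. Some tested differences are therefore given with and without it. Others, and all correlations between genes or probe sets, are given only with it. Of 11 listed osteoblast and osteocyte markers, 6 were on array A. Over all fractions together, their summed intensity ran from 82451 to 217002 at day 7 and from 260850 to 372968 at day 17. At day 7 the GFP-positive sums, 97216 to 164710, lay within the GFP-negative range of 82451 to 209187. The sums therefore do not separate the day 7 fractions. They rest on the brighter markers, since 2 to 4 of the 6 were below the array median in day 7 samples and 0 to 2 at day 17. Summed intensities of 17 macrophage and leukocyte markers were 6594 to 7574 in day 7 GFP-positive and 178084 to 231176 in day 17 unsorted samples. No marker was listed at 0, since the lowest intensity in the files was 10.

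At day 17 the GFP-positive cells read lower than the GFP-negative cells of the same experiments for Thbs2 on array A and for Postn. Sparc, Tnc and Fn1 showed no called difference. Thbs2 on array A was 7.98-fold lower and Postn 2.22-fold lower, 2 called members of 7 against 1.28% of all probe sets. The array C probe set of Thbs2 did not follow, at a log2 difference of 0.29 that was not called. The Postn call held in 7 of 18 alternatives. At day 7 no difference between the fractions was called for any member. Across days, Thbs2 on array A fell in the GFP-positive fraction, and no member was called in the GFP-negative or unsorted samples.

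**Figure D1:**
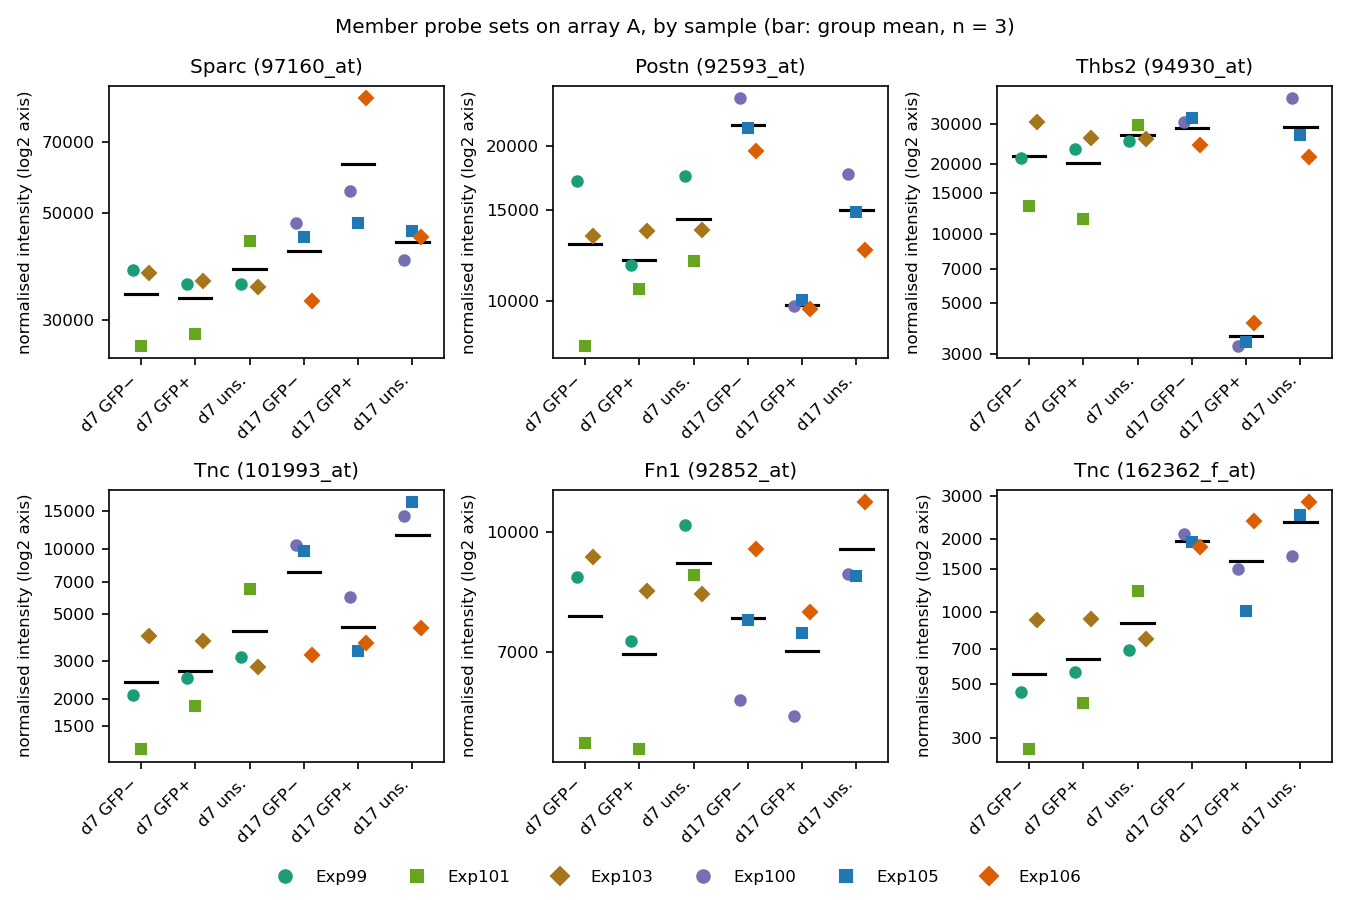
Normalised intensity (log2 axis) of the 6 member probe sets tested on array A, with 1 point per RNA sample, shape and colour by experiment and the bar at the group mean (n = 3). Thbs2 lay between 3257 and 4096 in day 17 GFP-positive samples, below all other samples, and Postn lay between 9639 and 10061 there, below every day 17 GFP-negative sample.

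Thbs2 encodes thrombospondin 2, a secreted glycoprotein of mesenchymal cells that restrains angiogenesis and interacts with matrix metalloproteinases. Its array A probe set 94930_at read 21332, 13172 and 30510 in day 7 GFP-negative and 23258, 11518 and 25989 in day 7 GFP-positive samples. The day 17 values were 30510, 31824 and 24140 in GFP-negative and 3257, 3375 and 4096 in GFP-positive samples. The 3 day 17 GFP-positive samples were the lowest of all 18, and the closest other sample, Exp101 GFP-positive, was at 11518. Unsorted samples read 25181, 29553 and 25865 at day 7 and 38651, 26784 and 21463 at day 17, within reach of the GFP-negative values at either day.

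Between fractions at day 17, Thbs2 was lower in GFP-positive cells by a log2 difference of -3.00 ± 0.34 (adjusted p = 0.00145, limma). Exp100 alone gave -3.22, Exp105 gave -3.23 and Exp106 gave -2.55. Without Exp106 it was -3.24 ± 0.43 (adjusted p = 0.00549, limma). The call held in all 18 alternatives tried. In bulk fractions such as these, fewer cells of a type and less RNA per cell cannot be told apart.

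At day 7 the GFP-positive and GFP-negative fractions overlapped for Thbs2, with a difference of -0.10 ± 0.34 (95% interval -0.84 to 0.65). The GFP effect therefore differed between the days by -2.90 ± 0.48 (adjusted p = 0.0394, limma), which was the 1 called member of 7 in a comparison that called 0.222% of all probe sets. This call held in 9 of 23 alternatives, with adjusted p between 0.00218 and 0.135, and it was lost when any single sorted sample other than Exp106 GFP-positive was left out. Without all of Exp106 the change was -3.14 ± 0.56 (adjusted p = 0.0405, limma).

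From day 7 to day 17, Thbs2 fell in GFP-positive cells by 2.41 ± 0.34 on the log2 scale, or 5.33-fold (adjusted p = 0.00204, limma), with no overlap between the days. It was 1 called member of 7, where 4.85% of all probe sets were called. In GFP-negative cells the difference was 0.48 ± 0.34 (adjusted p = 0.648, limma), with overlapping values, and in unsorted RNA 0.07 ± 0.32 (adjusted p = 0.905, limma).

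At day 17 unsorted RNA held more Thbs2 than the mean of the sorted fractions, by 1.47 ± 0.28 on the log2 scale or 2.78-fold (adjusted p = 0.0205, limma). That mean was taken on the log2 scale with equal weight for each fraction, whatever their share of the culture. For a gene that differs between the fractions, it lies below the level of an even mixture of them. The difference therefore does not by itself show more Thbs2 than the fractions hold together. Thbs2 was the 1 called member of 6 in this comparison, against 1.6% of probe sets called. On the deposited scale the difference was 1.67 ± 0.31, where the median of all probe sets also moved, to 0.23. The call was lost in 3 of 20 alternatives, among them leaving out unsorted Exp100 or unsorted Exp105. The unsorted values overlapped the GFP-negative ones and lay above all GFP-positive ones.

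A second Thbs2 probe set, 167486_i_at on array C, did not follow the first. It read 9973, 11286 and 9891 in day 7 GFP-negative and 9065, 11800 and 9584 in day 7 GFP-positive samples. Day 17 gave 6784, 6781 and 7292 in GFP-negative and 9448, 5259 and 12396 in GFP-positive samples. Day 17 GFP-positive samples were spread across the range of all groups, with Exp105 lowest and Exp106 highest. The difference at day 17 was 0.29 ± 0.27 (adjusted p = 0.832, limma), and its interval of -0.30 to 0.89 does not reach the value of the first probe set. Over the 12 sorted samples, which share their RNA between array types, the probe sets had a correlation of -0.07. Which transcripts each probe set reads was not tested, so the Thbs2 results above are those of the array A probe set.

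Postn encodes periostin, an integrin ligand of periosteum and ligaments that promotes collagen cross-linking. Its probe set 92593_at read 17115, 8183 and 13374 in day 7 GFP-negative and 11742, 10530 and 13710 in day 7 GFP-positive samples. At day 17 it read 24785, 21682 and 19545 in GFP-negative and 9796, 10061 and 9639 in GFP-positive samples. The 3 day 17 GFP-positive samples lay close together, and each GFP-negative sample of that day was higher than every other sample on the array. Unsorted samples read 17525, 11978 and 13765 at day 7 and 17650, 14864 and 12548 at day 17, between the day 17 fractions.

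Postn was lower in day 17 GFP-positive than GFP-negative cells by a log2 difference of -1.15 ± 0.25 (adjusted p = 0.0481, limma). Exp100 alone gave -1.34, Exp105 gave -1.11 and Exp106 gave -1.02. The adjusted p lay just under the threshold and the call held in 7 of 18 alternatives, with adjusted p between 0.00536 and 0.205. Without Exp106 the difference was -1.24 ± 0.29 (adjusted p = 0.0544, limma), and the call was also lost when any 1 day 17 sorted sample was left out. With Thbs2, Postn made 2 called members of 7, both lower, in a comparison that called 1.28% of all probe sets, 63 higher and 219 lower.

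At day 7 the Postn difference between fractions was -0.05 ± 0.25, and its change between the days, -1.10 ± 0.35, was not called (adjusted p = 0.480, limma). Postn in GFP-negative cells was 0.83 ± 0.25 higher at day 17 than at day 7 on the log2 scale, without overlap, but this was not called (adjusted p = 0.228, limma). In GFP-positive cells the same difference was -0.28 ± 0.25, also without overlap between the days and not called (adjusted p = 0.585, limma).

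With the experiment as a replicate block, which compares fractions within each experiment, the same counts of members were called. At day 17 between sorted fractions they were 2 of 7, against 3.21% of all probe sets, and for the change of the GFP effect 1 of 7, against 0.484%. For unsorted against sorted RNA at day 17 the count was 1 of 6, against 12.3%. The blocked standard error of the Thbs2 difference at day 17 was 0.16 (adjusted p = 0.00116, limma) and that of Postn 0.18 (adjusted p = 0.0197, limma).

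**Figure D2:**
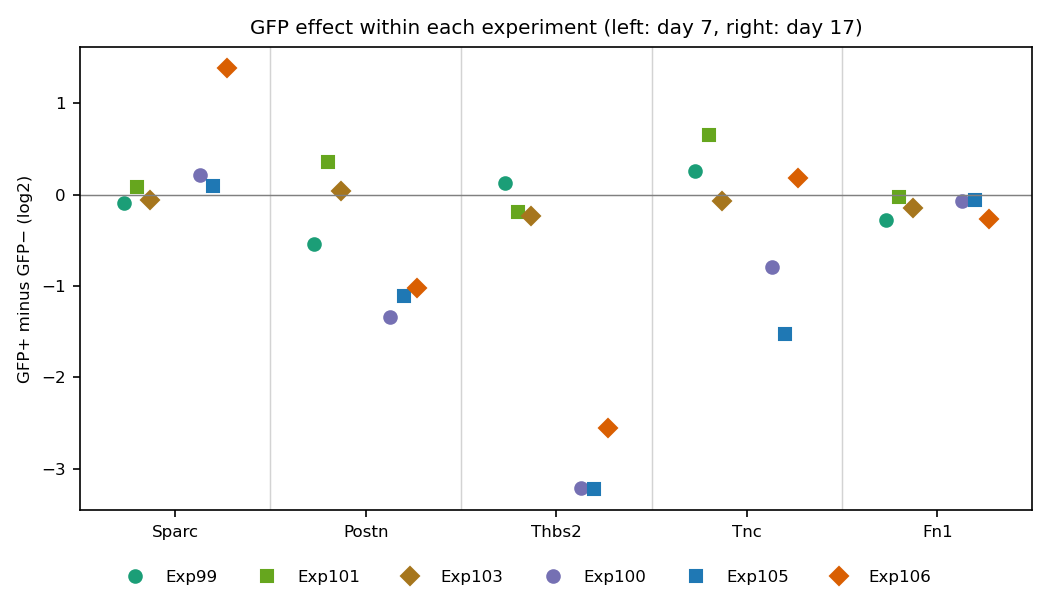
GFP-positive minus GFP-negative normalised log2 intensity within each experiment for the main probe set of 5 genes, with day 7 at the left and day 17 at the right of each gene. Thbs2 and Postn were below 0 in all 3 day 17 experiments, and Sparc in Exp106 lay at 1.39, far above the other experiments.

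Sparc encodes SPARC, the collagen-binding osteonectin that is abundant in bone matrix. Its probe set 97160_at was among the 143 brightest of array A in every sample. It read 38121, 26606 and 37485 in day 7 GFP-negative and 35733, 28164 and 36095 in day 7 GFP-positive samples. The day 17 values were 47717, 44535 and 32927 in GFP-negative and 55506, 47717 and 86114 in GFP-positive samples. Unsorted RNA gave 35733, 43832 and 35116 on day 7, then 39914, 45899 and 44535 on day 17. The highest value by far was that of Exp106 GFP-positive, while Exp106 GFP-negative was the lowest of its group.

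The Sparc difference between fractions at day 17 was 0.57 ± 0.25 (adjusted p = 0.455, limma) and was not called. It came to 0.22 for Exp100, 0.10 for Exp105 and 1.39 for Exp106, and without Exp106 it was 0.16 ± 0.20 (adjusted p = 0.773, limma). Against day 7, day 17 GFP-positive cells were 0.88 ± 0.25 higher, or 1.84-fold, with no overlap between the days. This was not called (adjusted p = 0.0724, limma), nor was the 0.65 ± 0.19 found without Exp106 (adjusted p = 0.0524, limma), though 2 of 16 alternatives called it. In GFP-negative cells the same difference was 0.29 ± 0.25 and in unsorted RNA 0.19 ± 0.22, both with overlapping values.

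The sample with the most Sparc also differed in its other markers. Macrophage and leukocyte markers summed to 87173 in Exp106 GFP-positive cells and to 23693 and 23035 in those of Exp100 and Exp105. Their part in the Sparc value was not tested. A second Sparc probe set, 164300_i_at on array B, did not pass the filter and was not tested. It read between 60 and 244 in the 10 sorted samples outside Exp106, and 777 in GFP-negative and 2299 in GFP-positive cells of Exp106.

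**Figure D3:**
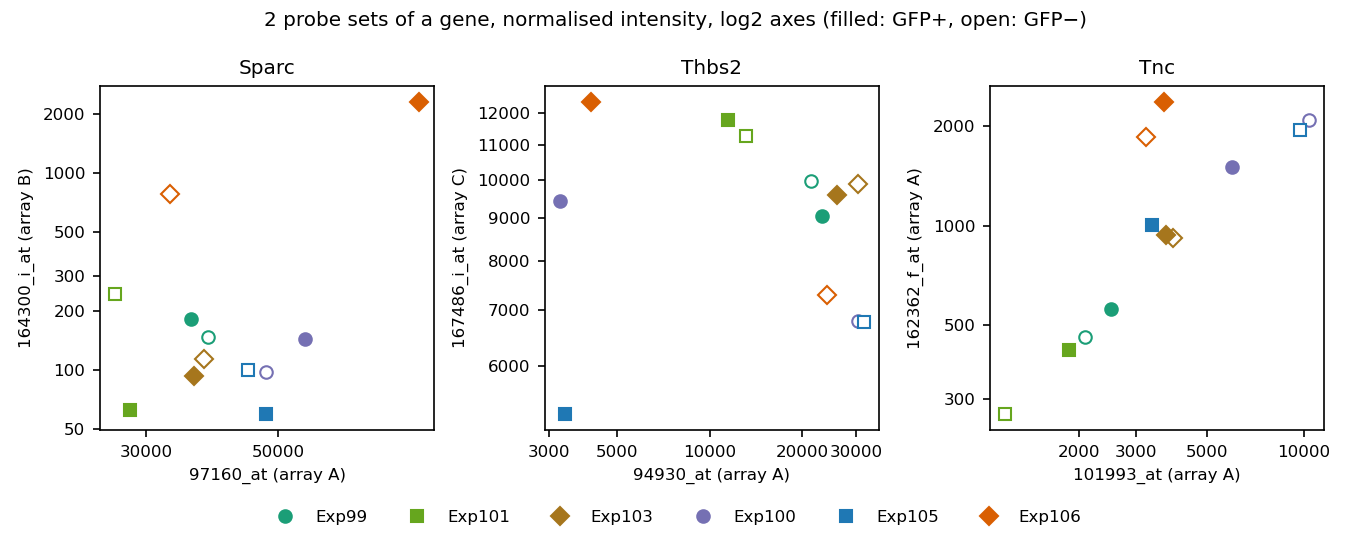
Normalised intensities (log2 axes) of the 2 probe sets of Sparc, Thbs2 and Tnc over the 12 sorted samples, filled for GFP-positive and open for GFP-negative. The Tnc probe sets had a correlation of 0.84, those of Thbs2 had -0.07, and on array B the Sparc probe set stood out in the 2 Exp106 samples only.

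Tnc encodes tenascin C, an adhesion-modulating hexamer of developing bone, tendon and wounds. Its probe set 101993_at read 2092, 1176 and 3924 in day 7 GFP-negative and 2519, 1863 and 3738 in day 7 GFP-positive samples. Day 17 gave 10367, 9758 and 3230 in GFP-negative and 5973, 3369 and 3669 in GFP-positive samples. Unsorted samples read 3146, 6503 and 2815 at day 7 and 14112, 16472 and 4291 at day 17. At day 17 the GFP-negative and unsorted samples of Exp106 lay well below those of Exp100 and Exp105.

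The second Tnc probe set, 162362_f_at, was dimmer, and in it Exp106 was not low. It read 463, 270 and 920 in day 7 GFP-negative, and 561, 421 and 935 in day 7 GFP-positive samples. At day 17 it read 2085, 1937 and 1849 in GFP-negative, and 1497, 1007 and 2365 in GFP-positive samples. Unsorted samples read 697, 1218 and 771 at day 7 and 1699, 2515 and 2840 at day 17. Every day 17 sample of this probe set was above every day 7 sample of the same fraction.

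No Tnc difference was called. In GFP-negative cells the values were higher at day 17 by 1.68 ± 0.51 for 101993_at (adjusted p = 0.230, limma) and by 1.93 ± 0.46 for 162362_f_at (adjusted p = 0.115, limma). That comparison called 0 of 7 members by limma, with 3 at an unadjusted p under 0.05, and 0.434% of all probe sets. In unsorted RNA the differences were 1.36 ± 0.57 (adjusted p = 0.179, limma) and 1.37 ± 0.41 (adjusted p = 0.0604, limma). There 0 of 6 members were called by limma, with 2 at an unadjusted p under 0.05, against 5.71% of all probe sets. Without Exp106 the unsorted difference of 101993_at was 1.97 ± 0.46 and was called (adjusted p = 0.0128, limma), whereas that of 162362_f_at was 1.24 ± 0.43 and was not (adjusted p = 0.0751, limma).

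Between the fractions at day 17, Tnc differed by -0.71 ± 0.51 for 101993_at and by -0.35 ± 0.46 for 162362_f_at, neither called. Exp100 and Exp105 GFP-positive cells were lower than their GFP-negative partners in both probe sets, and Exp106 GFP-positive cells were higher in both. In GFP-positive cells day 17 was above day 7 by 0.68 ± 0.51 and by 1.29 ± 0.46, again not called (adjusted p = 0.506 and 0.144, limma).

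Fn1 encodes fibronectin, the integrin-binding glycoprotein on which osteoblasts assemble their matrix. Its probe set 92852_at read 8750, 5343 and 9286 in day 7 GFP-negative and 7229, 5253 and 8383 in day 7 GFP-positive samples. The day 17 values were 6073, 7707 and 9491 in GFP-negative and 5801, 7410 and 7891 in GFP-positive samples. Unsorted samples read 10205, 8809 and 8324 at day 7 and 8828, 8773 and 10923 at day 17. Group means ran from 6955 ± 1583 (SD, n = 3) in day 7 GFP-positive to 9508 ± 1226 in day 17 unsorted samples. Most groups overlapped, but every day 17 unsorted sample was above every GFP-positive sample of either day.

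Fn1 differences lay between -0.15 and 0.37 on the log2 scale in the 8 comparisons, and none was called. At day 17 the fractions differed by -0.13 ± 0.28 (95% interval -0.73 to 0.48), and in GFP-positive cells the days differed by 0.03 ± 0.28 (95% interval -0.57 to 0.64). Differences of more than 2-fold lie outside both intervals.

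**Figure D4:**
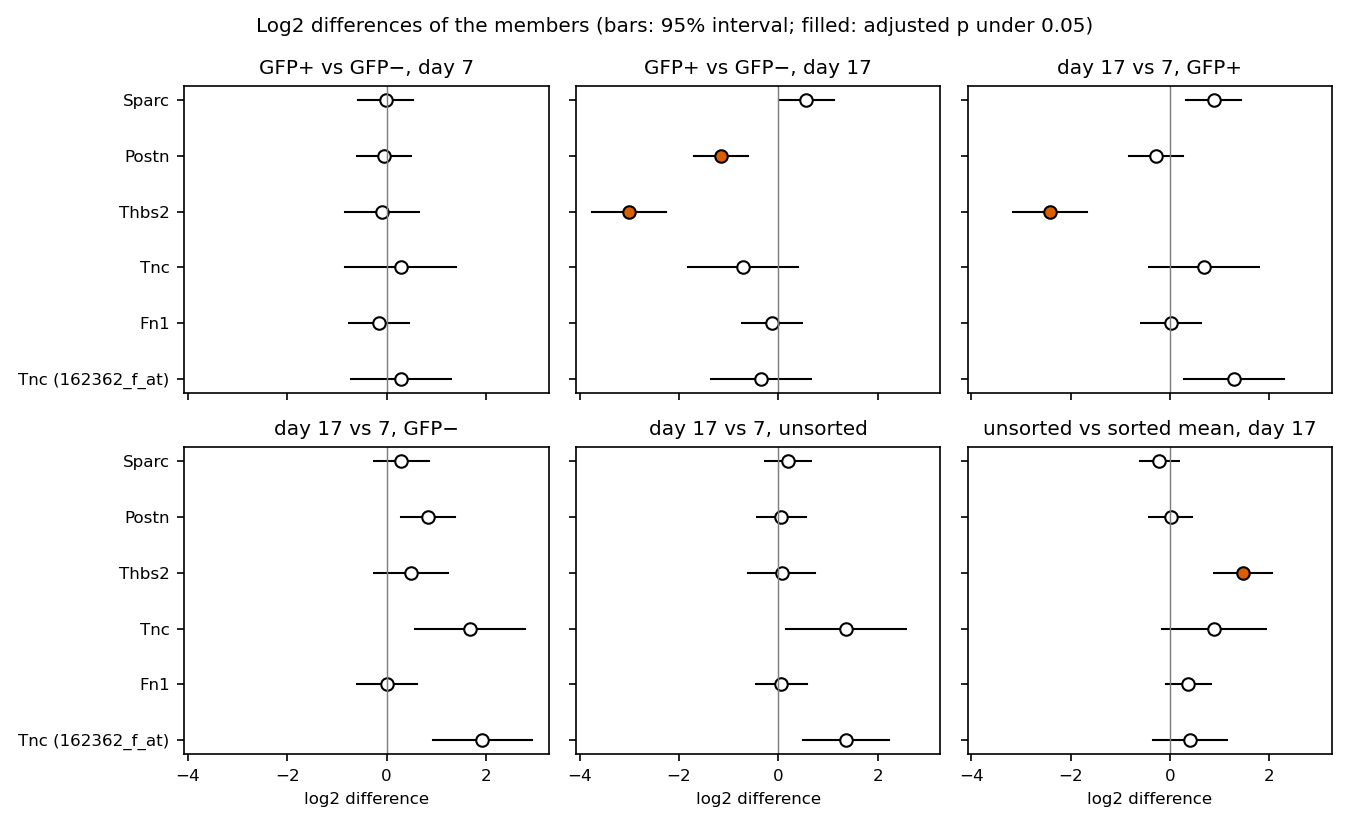
Log2 differences of the 6 member probe sets tested on array A in 6 comparisons, with 95% intervals from limma and filled points where the adjusted p was under 0.05. Filled points are Thbs2 and Postn between the day 17 fractions, Thbs2 between days in GFP-positive cells, and Thbs2 in unsorted against sorted RNA at day 17.

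The probe set 160469_at, annotated to both Pald1 and Thbs1, read 21132, 12751 and 28164 in day 7 GFP-negative and 17782, 10047 and 21790 in day 7 GFP-positive samples. Day 17 gave 16725, 14762 and 16182 in GFP-negative and 9892, 10406 and 9473 in GFP-positive samples. GFP-positive cells were below GFP-negative cells in all 6 experiments, and at day 17 the fractions did not overlap. The day 17 difference of -0.68 ± 0.31 was not called (adjusted p = 0.480, limma), but with the replicate block it was -0.68 ± 0.11 and was called (adjusted p = 0.0243, limma). Unsorted samples read 24785, 30510 and 20255 at day 7 and 16789, 22783 and 12842 at day 17, with a difference of -0.55 ± 0.30 (adjusted p = 0.299, limma).

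In the remaining comparisons no member was called. Between the fractions at day 7 limma called 0 of 7 members, 0 of them at an unadjusted p under 0.05. It called 0% of all probe sets, with 396 at an unadjusted p under 0.05. Unsorted RNA against the mean of the sorted fractions at day 7 gave 0 of 6 members, 0 of them at an unadjusted p under 0.05. It again gave 0% of all probe sets, with 59 at an unadjusted p under 0.05. Both sorted Exp101 samples were the lowest of their groups for every member probe set tested on array A. Unsorted Exp101 was instead the highest day 7 unsorted sample for Sparc, Thbs2 and Tnc. Thbs2 there read 13172 and 11518 in the sorted and 29553 in the unsorted sample. The cause was not tested.

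Among themselves, over the 18 array A samples, Postn and Thbs2 had the highest correlation between different genes apart from 1 pair, at r = 0.68. The exception was Sparc with the dimmer Tnc probe set, at 0.69, while Sparc and Thbs2 ran opposite, at -0.47. These samples share groups and experiments, so the values are descriptions.

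The genes whose pattern over the 18 samples was most like that of a member were taken from all other probe sets tested on array A. For Thbs2 they were Gas1 (r = 0.95), a growth-arrest protein of the cell surface, Prss23 (0.94), a secreted serine protease, and Synpo (0.93), an actin-binding protein. Gas1 read 1429 to 1590 in day 17 GFP-positive samples and 4958 to 6329 in day 17 GFP-negative samples. Prss23 read 502 to 715 and 5130 to 7258 in the same groups. Both genes were picked for following Thbs2 over these samples, so their low level in that fraction comes with the choice.

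For Postn the most alike genes were Col3a1 (0.90), the fibrillar collagen of soft connective tissue, Ahr (0.82), a ligand-activated transcription factor, and Smoc2 (0.81), a SPARC-related protein. Col3a1 read 7563 to 10505 in day 17 GFP-negative and 1772 to 2669 in day 17 GFP-positive samples. For Sparc they were Lypla2 (0.90), Hdlbp (0.87) and Slc44a1 (0.87). Lypla2 ran from 2846 to 8500 in day 17 GFP-positive samples, against at most 3141 in any other group. The Sparc correlations include Exp106 GFP-positive, the highest Sparc value by far at 86114, and were not computed without it. For Tnc they were Pltp (0.91), a phospholipid transfer protein, Crtap (0.85), a collagen prolyl-hydroxylation partner, and Srebf1 (0.84), a regulator of lipid synthesis. For Fn1 they were Tpbg (0.91), Marchf6 (0.86) and Plod3 (0.85), the last a collagen lysyl hydroxylase.

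Relatives of the members and the receptors they bind were counted next, with 1 probe set per gene. Between the day 17 fractions, 186 of 11680 genes were called, 38 with more and 148 with less RNA in the GFP-positive fraction, and the median log2 difference was -0.01. Of 9 tested relatives in the SPARC, thrombospondin, tenascin and periostin families, 0 were called higher and 2 called lower, with a median of -0.67. They were Fstl1, a secreted SPARC-family glycoprotein, at -1.97 ± 0.28 (adjusted p = 0.00434, limma), and Smoc2 at -1.98 ± 0.29 (adjusted p = 0.00517, limma). Fstl1 read 4483, 5056 and 5892 in GFP-negative and 1935, 1002 and 1077 in GFP-positive cells at day 17.

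Of 18 integrins and other receptors, 0 were called higher and 2 called lower at day 17 in GFP-positive cells, with a median of -0.23. The integrin subunit genes called were Itga8, a partner of beta 1 that binds RGD ligands including fibronectin and tenascin C, at -2.35 ± 0.45 (adjusted p = 0.0260, limma), and Itgb5, a partner of alpha v, at -1.26 ± 0.27 (adjusted p = 0.0481, limma). Itga8 read 13454, 14814 and 4355 in GFP-negative and 1314, 2791 and 1720 in GFP-positive cells. Integrin alpha v beta 5 is known as a periostin receptor, and its beta subunit gene read 13640, 15695 and 8580 against 4499, 5173 and 5634. Itga10 went the other way without being called. It read 4155, 4859 and 2009 in GFP-negative and 16904, 12887 and 9143 in GFP-positive cells, without overlap. Without Exp106, Itga1 was also called lower, at -3.52 ± 0.59 (adjusted p = 0.0142, limma), where 499 of 11327 genes were called.

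Of 14 other adhesive glycoproteins, 0 were called higher and 1 called lower, with a median of -0.86. This was Edil3, an RGD-containing integrin ligand, which read 19989, 25237 and 14587 in GFP-negative and 1621, 2293 and 997 in GFP-positive cells. Its difference was -3.62 ± 0.33, or 12.3-fold (adjusted p = 0.000686, limma), larger than that of Thbs2. Edil3 was also the 1 listed gene called for the change of the GFP effect between days, at -3.89 ± 0.46 (adjusted p = 0.0161, limma). Without Exp106 that comparison also called Smoc2 and Itga8. With the replicate block it also called Fbln2, fibulin 2, at -2.43 ± 0.28 (adjusted p = 0.0222, limma), but not Smoc2 or Itga8.

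Of 12 tested genes in the focal adhesion list 0 were called higher and 1 called lower, with a list median of -0.45. The called gene was Cav1 of the caveolar coat, at -1.69 ± 0.32 (adjusted p = 0.0223, limma). Of 6 TGF-beta ligands and latency proteins limma called 0, with 3 at an unadjusted p under 0.05 and a median of -0.60, the extremes being Ltbp2 at -2.00 ± 0.58 (adjusted p = 0.160, limma) and Tgfb1 at 1.04 ± 0.79 (adjusted p = 0.764, limma). With the replicate block the lower counts were 3 relatives, 2 receptors, 5 other adhesive glycoproteins, 1 TGF-beta gene and 2 focal adhesion genes, with 0 higher in each list. Over all genes the block gave 150 higher and 311 lower.

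**Figure D5:**
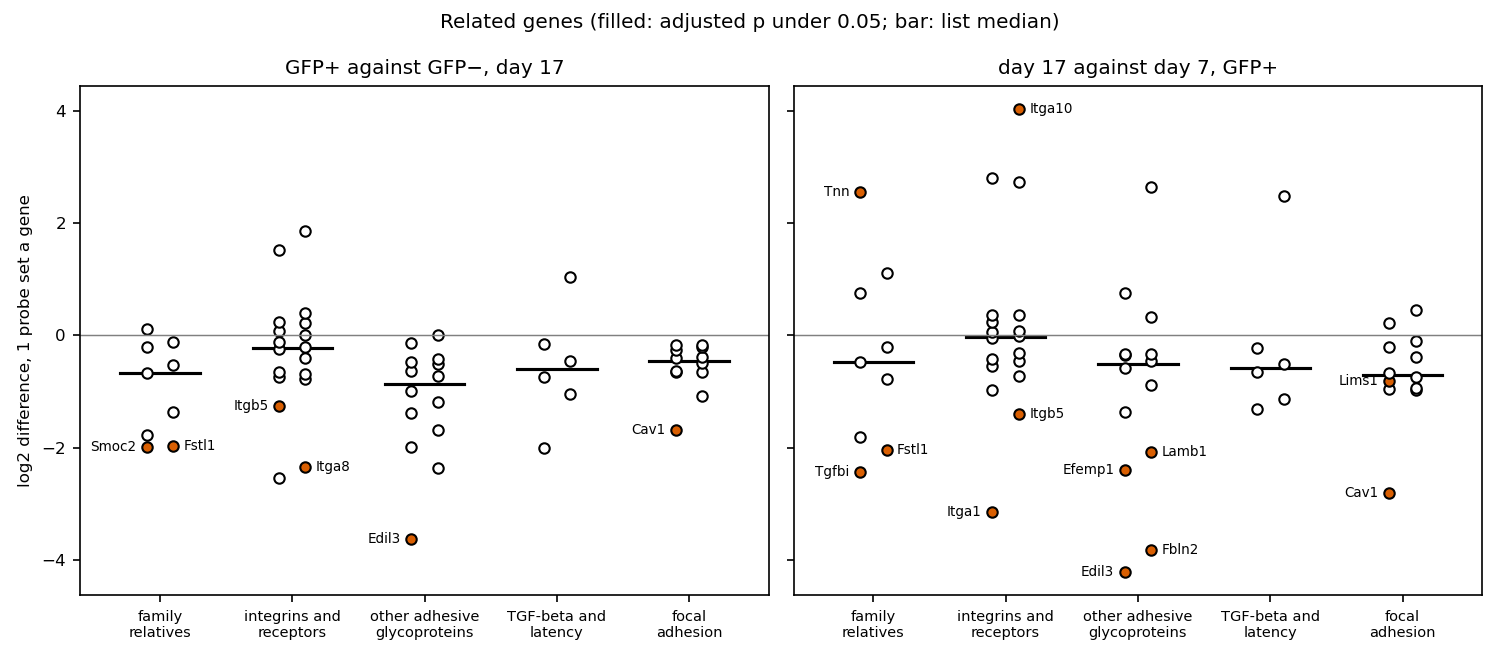
Log2 differences of related genes, 1 probe set per gene, in 5 lists between the day 17 fractions (left) and between days in GFP-positive cells (right), with the list median as a bar and filled, named points where the adjusted p was under 0.05. All 6 filled points at the left are below 0, while at the right Tnn and Itga10 are above 0 and 10 genes below.

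From day 7 to day 17 in GFP-positive cells, 676 of 11680 genes were called, 244 higher and 432 lower. Among relatives 1 of 9 was called higher and 2 called lower. Tnn, the bone- and periosteum-associated tenascin W, rose by 2.56 ± 0.58 (adjusted p = 0.0274, limma), from 648, 2896 and 430 to 9191, 5014 and 3996. Tgfbi, the periostin paralogue, fell by 2.43 ± 0.52 (adjusted p = 0.0205, limma), and Fstl1 fell by 2.04 ± 0.28 (adjusted p = 0.00183, limma). Unsorted RNA also held less Tgfbi at day 17, without overlap but not called. It read 6101, 2491 and 3066 at day 7 and 1580, 2222 and 1029 at day 17.

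Among receptors 1 of 18 was called higher and 2 called lower over the same interval. Itga10, a collagen-binding integrin subunit of cartilage, rose by 4.03 ± 0.50 (adjusted p = 0.00102, limma), from 759, 415 and 1284 to 16904, 12887 and 9143. Itga1, another collagen-binding subunit, fell by 3.14 ± 0.80 (adjusted p = 0.0448, limma), and Itgb5 fell by 1.40 ± 0.27 (adjusted p = 0.0126, limma). Among other adhesive glycoproteins 0 of 14 were called higher and 4 called lower. Edil3 led at -4.21 ± 0.33 (adjusted p = 8.67e-05, limma), then Fbln2 at -3.83 ± 0.66 (adjusted p = 0.00665, limma). Efemp1 and Lamb1 were the others. In unsorted RNA Fbln2 was lower at day 17 too, without overlap but not called. It read 60540, 33570 and 23779 there at day 7 and 12386, 14070 and 13710 at day 17. Of 12 genes in the focal adhesion list 0 were called higher and 2 called lower. These were Cav1 at -2.81 ± 0.32 (adjusted p = 0.000629, limma) and Lims1 at -0.82 ± 0.19 (adjusted p = 0.0316, limma). For the TGF-beta ligands and latency proteins limma called 0 of 6, with 1 at an unadjusted p under 0.05 and a median of -0.59. Without Exp106, Tgfb1 was also called higher and Parva, of the focal adhesion list, lower, where 1476 of 11327 genes were called.

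In GFP-negative cells limma called 0 genes of these 5 lists between the days, where it called 64 of 11680 genes. At an unadjusted p under 0.05 there were 3 relatives, 3 receptors, 2 other adhesive glycoproteins, 1 TGF-beta gene and 2 focal adhesion genes. Tnn and Itga10 were higher at day 17 here too, without overlap between the days. Tnn read 1445, 2179 and 1356 at day 7 and 7715, 12102 and 5912 at day 17. Itga10 read 1546, 1252 and 518 at day 7 and 4155, 4859 and 2009 at day 17. Their rises were therefore not confined to GFP-positive cells. Without Exp106 it called Smoc2, Itga8 and Emilin1, 1 in each of 3 lists and all higher at day 17. In unsorted RNA 341 of 5647 genes were called between the days, 178 higher and 163 lower. The called genes of the lists were Stab1, a scavenger receptor that clears SPARC, at 3.61 ± 0.70 (adjusted p = 0.00719, limma), Sdc2, a syndecan, at -0.79 ± 0.19 (adjusted p = 0.0259, limma), Cav1 and Lims1. Stab1 read 787, 464 and 317 in unsorted RNA at day 7 and 9876, 5267 and 4852 at day 17. It is a macrophage gene, and 12 of the 16 tested macrophage and leukocyte markers were also higher in that comparison. Whether such cells account for the Stab1 values was not tested. Without Exp106, Tgfb1 and Ltbp3 were also called between days in unsorted RNA, 1 higher and 1 lower, where 742 of 5388 genes were called.

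In unsorted against sorted RNA at day 17, 95 of 5647 genes were called, 89 higher and 6 lower. Of these, Fstl1 at 0.92 ± 0.21 (adjusted p = 0.0410, limma) and Stab1 at 2.69 ± 0.61 (adjusted p = 0.0393, limma) were the called genes of the 5 lists. Fstl1 read 5470, 4303 and 4899 in unsorted RNA, close to its GFP-negative values, as Thbs2 did. It also differed between the sorted fractions, so the limit of the equal-weight log2 mean given for Thbs2 applies to it too. With the replicate block 2 relatives, 3 receptors, 2 other adhesive glycoproteins, 1 TGF-beta gene and 1 focal adhesion gene were called, all higher in unsorted RNA. They were Fstl1, Tgfbi, Stab1, Itgb5, Lrp1, Fbln2, Lamb1, Ltbp2 and Tln1, where the block called 734 of 5647 genes. Of the 16 tested macrophage and leukocyte markers, 5 were higher in unsorted RNA without the block.

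Summed markers of other cells also differed between the day 17 fractions. The 17 macrophage and leukocyte markers summed to 74934 to 130146 in GFP-negative samples, and to 23693, 23035 and 87173 in GFP-positive samples, where Exp106 lay within the GFP-negative range. None of the 14 tested was called by limma, with 10 at an unadjusted p under 0.05 and a median of -1.55. The 8 smooth muscle and pericyte markers on array A summed to 12274 to 12906 in GFP-positive and to 31975 to 47764 in GFP-negative samples, and to 46419 to 59484 in the sorted samples of day 7. The 9 fibroblast and mesenchymal progenitor markers summed to 97420 to 125693 in GFP-positive and to 159301 to 214933 in GFP-negative samples at day 17. The 6 osteoblast markers summed to 323005 to 372968 and 260850 to 278211 in the same order. Of the 8 smooth muscle markers, 4 to 6 were below the array median in the GFP-positive and 4 in the GFP-negative samples of day 17. Called lower in GFP-positive cells at day 17 were 2 of 6 tested smooth muscle markers, Acta2 and Tagln, and 3 of 9 of the fibroblast list, Sfrp2, Mgp and Aspn. Phex, called higher, was 1 of 6 tested osteoblast and osteocyte markers. Over all genes 1.59% were called. The part of these markers in the Thbs2, Postn and Edil3 differences was not tested.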

How the data were processed

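The authors deposited linear intensities, 1 value for each probe set on each array, for 18 array A, 13 array B and 13 array C hybridisations. Their probe summary and scaling steps are not stated in the labels used here. The trimmed mean intensity ran from 1069 to 1766 over the arrays of type A, and the number of arrays limits the precision. Groups and experiments came from sample titles. Gene symbols came from the platform annotation, updated through gene identifiers (29131 probe sets with 1 gene, 724 with several, 6846 with none).

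Values were quantile normalised within array type, and log2 of intensity plus 32 was fitted with limma 3.58.1 (R 4.3.3, variance trend), after a filter for probe sets above their array's median on at least 3 arrays. The main probe set of a gene was taken from array A before B before C, then the brightest. The sorted fit used 12 samples of all array types and the array A fit 18 samples. The member genes, the gene lists and the 8 comparisons were chosen with earlier results of these data known. Genes named from a list were the 2 largest called changes in each direction, or the largest uncalled ones where none was called. A few more are named because their values had been seen. Same-experiment fractions were checked as pairs: correlations of their deviations from group means ran from 0.292 to 0.671 on array A, 0.109 to 0.506 on B and 0.0187 to 0.427 on C. The pairing rests on the shared experiment names. The script was tested on simulated data. Alternatives covered pseudocount, filter, scaling, samples in the fit, variance trend, replicate block, array type and left-out samples.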

Additional observations from a re-analysis of the deposited data

Results flagged for a closer look

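Thbs2 on array A differed in its GFP effect between the days: the GFP-positive minus GFP-negative difference was -0.10 at day 7 and -3.00 at day 17, and the change of -2.90 was tested as an interaction (adjusted p = 0.0394, limma). All 3 experiments of day 17 lay below all 3 of day 7. The days also differ in reporter and additions, which cannot be told apart, and the array C probe set of the gene gave a change of 0.33 that was not called (adjusted p = 0.9997, limma).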

How the results depend on the processing

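Of 53 member differences tested, 5 were called. Of these, 2 were called in every alternative tried, both for Thbs2 on array A, between the day 17 fractions and between days in GFP-positive cells, and 0 changed sign. Of the others 45 were never called and 3 were called in some alternative. Between the day 17 fractions the count of called members fell from 2 to 1 with no filter, with values as deposited, with only the groups compared, with no variance trend and without Exp106, and was 1 to 1 with single samples left out, Postn being the member lost. The change of the GFP effect went from 1 to 0 with no filter, with values as deposited and with no variance trend, and ranged from 0 to 1 with single samples left out. Between days in GFP-positive cells the count went from 1 to 2 under a 75th percentile filter and with values as deposited, Sparc being added. In unsorted RNA between days it went from 0 to 1 with the higher pseudocount and without Exp106, with different Tnc probe sets. In unsorted against sorted RNA at day 17 it went from 1 to 0 with only the groups compared, and ranged from 0 to 1 with single samples left out. With the replicate block the counts were 2, 1 and 1 in the day 17, change and unsorted comparisons, and the block changed no other member call. Calls over all probe sets between the day 17 fractions numbered 282, against 24 with only the groups compared, 710 with the block, 779 without Exp106 and 1010 with a random block. The cause of these shifts was not tested.

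A sign change occurred in some alternative for 16 uncalled differences, all small. Without Exp106 the Fn1 differences between days were -0.059 in GFP-positive, -0.15 in GFP-negative and -0.044 in unsorted samples, and with values as deposited the array C Thbs2 difference between days in GFP-positive cells was 0.034. With single samples left out, the day 7 GFP effect ranged from -0.19 to 0.092 for Sparc, -0.34 to 0.19 for Postn, -0.41 to 0.26 for Thbs2 on array A, -0.15 to 0.037 for Thbs2 on array C, -0.14 to 0.72 and -0.10 to 0.72 for Tnc, and -0.40 to 0.040 for Fn1. For Fn1 the day 17 effect ranged from -0.29 to 0.028, its change from -0.17 to 0.27, and the difference between days from -0.16 to 0.18 in GFP-positive, -0.24 to 0.17 in GFP-negative and -0.044 to 0.14 in unsorted samples. Between days the range was -0.51 to 0.10 for Thbs2 on array C in GFP-positive cells, and in unsorted RNA -0.062 to 0.21 for Postn and -0.16 to 0.27 for Thbs2. Postn in unsorted against sorted RNA at day 17 ranged from -0.10 to 0.14.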

Other observations

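The unsorted RNA of Exp106 was the only unsorted RNA on arrays B and C and entered no comparison there. In it the array B Sparc probe set 164300_i_at read 700, below the GFP-negative (777) and GFP-positive (2299) cells of the same experiment, and the array C Thbs2 probe set 167486_i_at read 9989.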
